A study of Mus musculus with 9 samples.

Results

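The comparison described here is that of hearts from delta-sarcoglycan knockout (KO) and wild-type (WT) mice that all received ifetroban. It uses 5 of the 9 libraries of the series, the 3 titled as KO with ifetroban and the 2 titled as WT with ifetroban, chosen by title. The other 4 libraries, 2 WT and 2 KO from mice on normal drinking water, entered only the estimate of the spread between libraries. All mice were on a C57BL/6 strain background, had running wheels at intervals and were examined at 6 months of age. In both groups compared here, ifetroban was given in the drinking water from weaning at 25 mg/kg/day, so the drug is common to both and the labelled difference is the Sgcd genotype, apart from a conflict in the labels of 1 library. Total RNA came from the left ventricle after perfusion of the heart with phosphate-buffered saline. Sequencing gave 25337791 and 23831043 counts in WT and 21510236, 30182943 and 23177785 counts in KO, and 15521 genes were tested. No label says that replicates are separate animals, so the p-values measure the spread between these samples, which may in part be technical.

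Delta-sarcoglycan is a single-pass protein of the sarcoglycan complex, which sits with dystrophin in the plasma membrane of striated muscle and steadies it during contraction. Mice without it develop muscular dystrophy and a cardiomyopathy with patches of damaged myocytes, inflammation and fibrosis. Thromboxane A2 and related prostanoids act on the thromboxane-prostanoid (TP) receptor, the product of Tbxa2r, which contracts vessels and activates platelets, and ifetroban blocks this receptor. The question the comparison bears on is which transcripts still separate KO from WT ventricle when both have had the antagonist.

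KO replicate 1 needs care. Its title and source name give ifetroban, whereas its treatment characteristic gives vehicle. It also stood apart from the other libraries of its group in the values. Across 13037 protein-coding genes, levels relative to the mean of the 9 libraries fell with increasing transcript length in this library. The Spearman correlation was -0.52, taken over genes, and genes are no independent replicates. Among the libraries used only for spread, both KO vehicle libraries (-0.40 and -0.45) and WT vehicle replicate 1 (-0.46) were negative as well, and WT vehicle replicate 2 was positive (0.41). They increased with length in the other 4 libraries of the comparison (correlation 0.43 and 0.43 in WT, 0.40 and 0.39 in KO replicates 2 and 3). Over 12989 genes the KO minus WT log2 fold change had a correlation of -0.34 with length, and of -0.04 without KO replicate 1. The median log2 fold change of the 3249 shortest genes (225 to 2263 bases) was 0.10 and that of the 3247 longest (4892 to 123179 bases) -0.14. Without that library the medians were -0.01 and -0.03. Every pair of libraries within a group differed by more than counting noise. The chi-square per degree of freedom of KO replicate 1 was 55.3 against KO replicate 2 and 65.6 against KO replicate 3. It was 21.4 between those 2 and 13.9 between the WT libraries. These values come from raw counts, in which genes with many counts, pseudogenes among them, weigh most. The level in every library is therefore given for single genes, and log2 fold changes with an adjusted p are given with all 5 libraries and again without KO replicate 1. The libraries with a negative slope include no WT ifetroban library, so no value within that set can be given. The fit without KO replicate 1 still holds 3 negative-slope vehicle libraries. A fit on the 5 libraries with a positive slope gives the values within that set, and in it 53 genes rose and 8 fell.

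Levels are given as CPM, counts scaled by library size with TMM factors, listed in the order of the replicate numbers. Differences are log2 fold changes, KO minus WT, with the standard error (SE) of the fit and a p adjusted by the Benjamini-Hochberg method over all genes tested. Sgcd (chromosome 11, 46896253 to 47988969, minus strand, build mm10, protein-coding) is the gene the knockout targets. It was at 23.7 and 23.5 CPM in WT and 7.301, 12.9 and 13.3 CPM in KO, from 156 to 586 counts per library. All 3 KO libraries lay below both WT libraries, with the lowest level in KO replicate 1. The log2 fold change was -1.07 ± 0.34 (SE), adjusted p = 0.322, and -0.85 ± 0.32 (adjusted p = 0.547) without KO replicate 1, so the difference did not pass the threshold of 0.05 in either fit. With only the 4 libraries of WT and of KO replicates 2 and 3 in the model it was -0.83 ± 0.11 (adjusted p = 0.0397). KO libraries therefore held Sgcd transcripts, at a lower level than WT. The deposited value stands for the entire gene, and no source used here says which part of Sgcd the knockout lacks.

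The 2 genes that fell past the threshold (0.0129% of 15521 tested) both lie near Sgcd on chromosome 11. Pttg1 (chromosome 11, 43420250 to 43426251, minus strand) encodes securin, the inhibitor that holds separase until chromosomes part. Its level was 41.4 and 40.8 CPM in WT and 1.59, 1.56 and 1.78 CPM in KO, with little spread within either group. It fell by 4.64 ± 0.24 (SE) on the log2 scale (adjusted p = 0.000105), and by 4.63 ± 0.29 without KO replicate 1 (adjusted p = 0.000577). Cyfip2 (chromosome 11, 46193850 to 46312859, minus strand) encodes a subunit of the WAVE complex, which drives branching of actin filaments. Its level was 229 and 236 CPM in WT and 23.5, 24.3 and 40.1 CPM in KO, so KO replicate 3 was the highest of the KO libraries and still far below WT. It fell by 2.99 ± 0.24 (adjusted p = 0.0023), and by 2.86 ± 0.24 without KO replicate 1 (adjusted p = 0.00503). Both genes passed in each of the 9 fits that left out 1 library. In the fit limited to libraries with a positive length slope, the log2 fold changes were -4.61 for Pttg1 and -2.84 for Cyfip2, whose adjusted p was 0.0619.

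Between Cyfip2 and Sgcd lies Gm12167, an annotated antisense transcript. Its level was 4.56 and 4.75 CPM in WT and 1.12, 0.477 and 1.09 CPM in KO. It followed the same pattern, with a log2 fold change of -2.40 ± 0.37 (SE), adjusted p = 0.0787, and -2.60, adjusted p = 0.0905, without KO replicate 1, short of the threshold in both. No source used here says whether counting used strand, so its reads cannot be told from those of genes on the other strand. Most other genes of the neighbourhood lay close to WT. Of 104 deposited genes with a lower end within 5 Mb of that of Sgcd, 81 were tested, and their median log2 fold change was -0.01 (0.02 without KO replicate 1). At an unadjusted p under 0.05, 5 of the 81 were higher and 6 lower in KO, Sgcd included, against 6.25% higher and 3.12% lower over all genes tested. The lists that hold the partners of both proteins had medians closer to WT. Of the 19 tested genes of securin, separase and cohesin, Pttg1 alone passed the threshold, against 0.0387% of all genes. Their median was -0.16 (-0.06 without KO replicate 1), and 16 were negative (14). KO was lower without overlap in 6 and higher in 0, against 15.1% and 14% of all genes. Without KO replicate 1 these were 8 and 0, against 23% and 19.2%. Of the 25 tested genes of the WAVE complex and actin branching, Cyfip2 alone passed, and the median was 0.16 (0.05). Here KO was higher without overlap in 9 and lower in 2 (11 and 3 without KO replicate 1). In that list Nckap1l, the WAVE subunit of blood cells, was 7.75 and 5.83 CPM in WT and 11.05, 13.1 and 13.4 CPM in KO, higher in every KO library (adjusted p = 0.108).

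**Figure D1:**
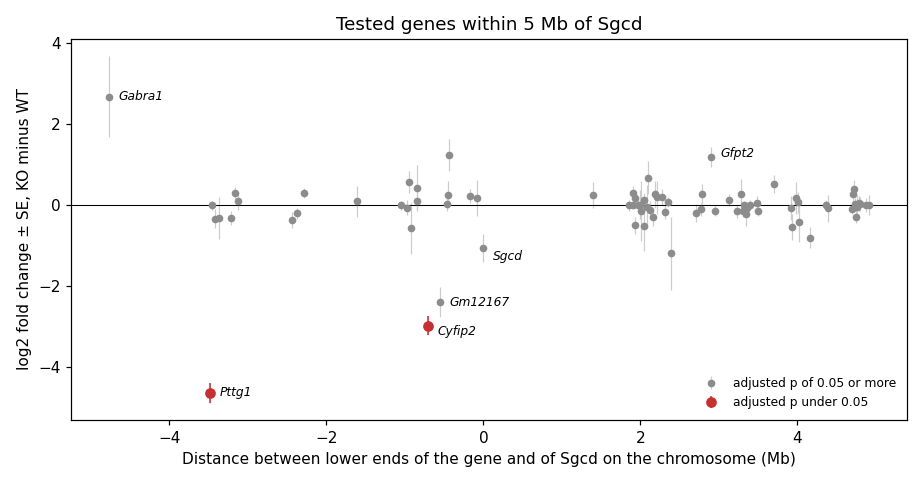
Log2 fold change (KO minus WT under ifetroban, all 9 libraries in the fit) of the 81 tested genes within 5 Mb of Sgcd, against the distance in Mb between the lower ends of each gene and of Sgcd, with bars of 1 SE. Pttg1 at -4.64 and Cyfip2 at -2.99 are the 2 genes with an adjusted p under 0.05, and most of the others lie close to 0.

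Over all genes, 4 rose and 2 fell in KO at an adjusted p under 0.05 by the edgeR quasi-likelihood test (0.0258% and 0.0129% of 15521, 0.0387% in either direction). Without KO replicate 1, 7 rose and 2 fell (0.0452% and 0.0129% of 15472, 0.0582% in either direction), and 5 genes were in both sets. An unadjusted p under 0.05 was found for 970 genes higher in KO (6.25%) and 485 lower (3.12%), 9.37% in all. Leaving out KO replicate 1 gave 780 (5.04%) and 351 (2.27%), 7.31% in all. The groups did not overlap in CPM, with KO higher, in 2180 genes (14%) and, with KO lower, in 2336 (15.1%). These shares became 19.2% and 23% (42.2% in all, from 29.1%) with 2 KO libraries, since fewer libraries overlap less often. For any 1 gene taken alone an exact two-sided rank-sum test of 3 against 2 libraries cannot go below p = 0.2. Many of the genes below are therefore given as values that did not pass the threshold, and the counts of each list are read against these shares.

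Ankrd1 (chromosome 19, 36111965 to 36119844, minus strand) had the highest level among the genes that rose. It encodes the cardiac ankyrin repeat protein, a titin-bound protein and nuclear cofactor that is induced by stretch and injury of the heart. Its level was 809 and 678 CPM in WT and 2561, 2069 and 1984 CPM in KO, with the 3 KO libraries close together and each above both WT libraries. The log2 fold change was 1.57 ± 0.18 (SE), adjusted p = 0.0262, a fold of 2.97, and 1.45 ± 0.16 (adjusted p = 0.0253) without KO replicate 1. Ctgf (chromosome 10, 24595442 to 24598683, plus strand), which encodes the matricellular connective tissue growth factor and is like Ankrd1 a target of YAP and TEAD factors, was 54.6 and 67.2 CPM in WT and 197, 159 and 144 CPM in KO. Of these fits it passed in the one without KO replicate 1, at 1.31 ± 0.17 (adjusted p = 0.0426), against 1.45 ± 0.19 (SE), adjusted p = 0.0508 with it. It also passed in 8 of 11 other settings. The fold of Ctgf was 2.73 with all libraries and 2.49 without that library.

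Lox (chromosome 18, 52516069 to 52529867, minus strand) encodes lysyl oxidase, the copper enzyme that cross-links collagen and elastin. Its level was 4.56 and 5.204 CPM in WT and 21.1, 20.7 and 18.4 CPM in KO, and within a group the libraries lay close together. It rose by 2.04 ± 0.20 (SE), adjusted p = 0.0126, and by 2.00 ± 0.22 (adjusted p = 0.0253) without KO replicate 1. Serpina3n (chromosome 12, 104406729 to 104414329, plus strand), a secreted inhibitor of serine proteases and an acute-phase gene, was 16.6 and 8.41 CPM in WT and 80.8, 85.1 and 79.7 CPM in KO. The KO libraries were nearly equal while the lower WT library was at 8.41 CPM and the higher at 16.6 CPM. The rise of 2.71 ± 0.33 (SE), adjusted p = 0.0368 was as large without KO replicate 1, at 2.72 ± 0.36 (adjusted p = 0.0537), though no longer past the threshold. With the sign of the length slope as a term in the fit it was 2.64 (adjusted p = 0.0923), and with positive-slope libraries only 2.74, past the threshold in neither. Ctss (chromosome 3, 95526786 to 95556403, plus strand), which encodes cathepsin S, a lysosomal protease of antigen-presenting cells, was 11.5 and 9.41 CPM in WT and 35.7, 27.7 and 27.7 CPM in KO. It rose by 1.54 ± 0.18 (SE), adjusted p = 0.0331, and by 1.40 ± 0.17 (adjusted p = 0.0371) without KO replicate 1. With KO replicate 1 counted as vehicle the rise of Ctss was 1.40 and did not pass (adjusted p = 0.0869). With 1 library left out at a time, the log2 fold changes stayed between 1.94 and 2.13 for Lox, 1.44 and 1.70 for Ankrd1, 1.40 and 1.69 for Ctss, and 2.30 and 3.28 for Serpina3n. The calls were less stable, since none of these 4 genes passed without WT replicate 1, without WT replicate 2 or without KO replicate 2 (adjusted p from 0.0719 to 0.496).

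Another 3 genes passed without KO replicate 1 and not with all 5 libraries, and each also passed in 4 of 11 other settings. Sprr1a (chromosome 3, 92483952 to 92485895, minus strand), a small proline-rich protein of the cornified envelope that the stressed heart also makes, was 0.363 and 0.125 CPM in WT and 23.1, 7.34 and 4.197 CPM in KO. Its KO levels spread over a wide range, with KO replicate 1 highest, and the WT libraries held 9 and 3 counts. The log2 fold change of 5.52 ± 0.95 (SE), adjusted p = 0.0892, came to 4.53 ± 0.59 (adjusted p = 0.0426) without that library. Aldh1a2 (chromosome 9, 71215789 to 71296243, plus strand), the main enzyme of retinoic acid synthesis in the heart's outer layer, was 2.79 and 2.25 CPM in WT and 34.1, 17.8 and 12.8 CPM in KO. Here too KO replicate 1 was highest, and the value went from 3.09 ± 0.47 (SE), adjusted p = 0.0787, to 2.60 ± 0.33 (adjusted p = 0.0426). H19 (chromosome 7, 142575529 to 142578143, minus strand), an imprinted long noncoding RNA, was 6.26 and 6.83 CPM in WT and 9.88, 19.1 and 14.6 CPM in KO. In this gene KO replicate 1 was the lowest of the KO libraries, and the value went from 1.16 ± 0.25 (SE), adjusted p = 0.128, to 1.37 ± 0.18 (adjusted p = 0.0426) when it was left out. Of the 9 fits that each left out 1 library, H19 passed in 1, the fit without KO replicate 1. Sprr1a and Aldh1a2 passed in 2, that fit included.

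**Figure D2:**
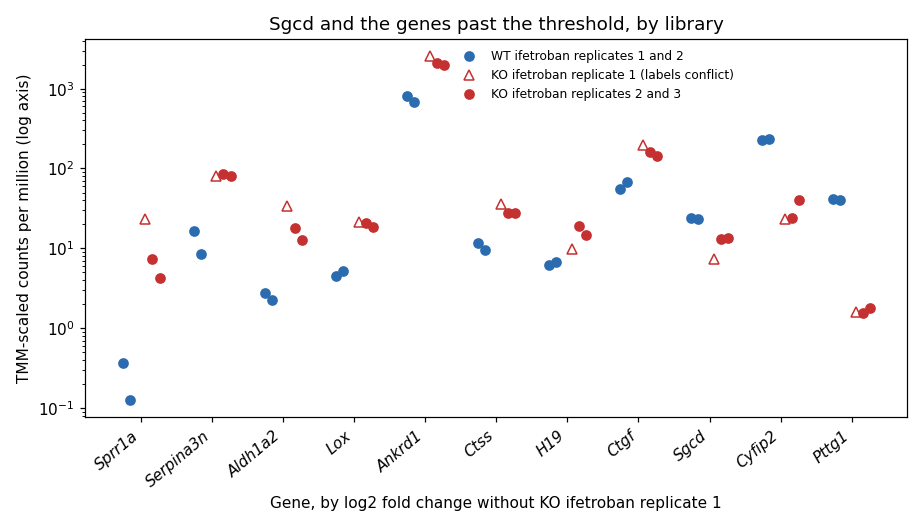
CPM on a log axis of Sgcd and the 10 genes past the threshold in either fit, 1 point per library, ordered by the log2 fold change without KO replicate 1. In each of the 11 genes no KO point lies within the range of the WT points, with Pttg1 at 1.56 to 1.78 CPM in KO against 40.8 and 41.4 CPM in WT.

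The sequences just upstream of these genes were read to see which carry short binding motifs of a few transcription factors, of which only TEAD is named above. A window of 250 bases before the RefSeq start was at hand for 7 of the 10 genes. In them 7 motifs were searched on both strands, each by exact letters, and no 2 hits overlapped. These were TEAD (GGAATG), AP-1 (TGANTCA), STAT (TTCNNNGAA), PU.1 (GAGGAAGT), SMAD (GTCTAGAC), MEF2 and NF-kB. A pair of genes had hits, and their windows are printed 5′ to 3′ on the gene's own strand (RefSeq, GRCm38.p6, the assembly also called mm10), with the motif in capitals. Ankrd1 (chr19:36119845-36120094, minus strand) held the TEAD letters at 210 and 123 bases before the start. Sprr1a (chr3:92485882-92486131, minus strand) held the AP-1 letters at 146 and 116 bases before it. The windows of Serpina3n, Aldh1a2, Ctss, Pttg1 and Cyfip2 held none of the 7.
Ankrd1: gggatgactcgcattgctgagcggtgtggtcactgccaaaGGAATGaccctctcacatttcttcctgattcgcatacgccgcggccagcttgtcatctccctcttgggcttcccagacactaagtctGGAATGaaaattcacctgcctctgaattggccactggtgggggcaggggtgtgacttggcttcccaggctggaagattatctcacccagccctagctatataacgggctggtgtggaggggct
Sprr1a: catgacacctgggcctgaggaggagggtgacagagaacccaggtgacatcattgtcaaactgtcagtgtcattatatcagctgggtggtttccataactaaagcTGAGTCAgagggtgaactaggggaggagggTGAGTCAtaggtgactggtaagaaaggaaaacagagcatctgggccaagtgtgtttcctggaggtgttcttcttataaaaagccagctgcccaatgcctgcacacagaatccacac
The TEAD letters occur in 12.6% and the AP-1 letters in 6.75% of all 32851 windows of this length, so a hit describes the sequence and shows no binding.

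Genes of cardiac stress and stretch were next. Of 25 tested, 10 had an unadjusted p under 0.05 and were higher in KO, and 0 were lower. The groups did not overlap in 12, all higher, against 14% of all genes. The median log2 fold change was 0.24, and 0.14 without KO replicate 1, against -0.01 and -0.02 over all genes. Nppb, the gene of B-type natriuretic peptide, was 129 and 244 CPM in WT and 593, 479.9 and 347 CPM in KO, with every KO library above both WT libraries (log2 fold change 1.35 ± 0.30, adjusted p = 0.138, and 1.15 ± 0.28, adjusted p = 0.213, without KO replicate 1). Nppa, which encodes the atrial peptide, was 202 and 272 CPM in WT and 705, 363 and 349 CPM in KO. Here KO replicate 1 was well above the other KO libraries, and the log2 fold change went from 0.99 ± 0.29 to 0.59 without it (adjusted p = 0.262 and 0.24). The cell cycle inhibitor Cdkn1a was 12.7 and 20.7 CPM in WT and 54.6, 54.3 and 34.6 CPM in KO (log2 fold change 1.52 ± 0.36, adjusted p = 0.162, and 1.42 ± 0.39, adjusted p = 0.32, without KO replicate 1). Rcan1, a target and inhibitor of calcineurin, was 73.1 and 105 CPM in WT and 179, 202 and 124 CPM in KO (log2 fold change 0.92 ± 0.26, adjusted p = 0.242, and 0.87 ± 0.28, adjusted p = 0.401, without KO replicate 1). The myosin genes that often switch in a failing mouse heart behaved differently. Myh7, the slow isoform, overlapped between the groups at 256 and 368 CPM in WT and 199, 297 and 371 CPM in KO, with a log2 fold change of -0.11 ± 0.44 that changed sign to 0.10 without KO replicate 1. Myh6, the fast isoform of the adult mouse heart, was 22784 and 23119 CPM in WT and 12229, 18561 and 20916 CPM in KO, lower in each KO library (log2 fold change -0.41 ± 0.24, adjusted p = 0.67, and -0.22 ± 0.20, adjusted p = 0.961, without KO replicate 1), and lowest in KO replicate 1. Of 19 tested targets of YAP and TEAD, 4 were higher at an unadjusted p under 0.05 and 0 lower, with a median of 0.07 (0.09). Among them Tgfb2, a transforming growth factor, was 9.37 and 9.58 CPM in WT and 24.4, 19.2 and 17.6 CPM in KO (log2 fold change 1.11 ± 0.16, adjusted p = 0.0787, and 0.96 ± 0.14, adjusted p = 0.0635, without KO replicate 1).

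The collagen and matricellular lists had positive medians, larger ones without KO replicate 1. Of 15 tested fibrillar and associated collagens, 6 had an unadjusted p under 0.05 and were higher, 0 were lower, and the median was 0.49. The groups did not overlap, with KO higher, in 6 of the 15, against 14% of all genes. Without KO replicate 1 this was 12 of the 15, against 19.2%, and the median was 0.56. Col1a1, a chain of type I collagen and the main collagen of scar, was 134 and 113 CPM in WT and 175, 235 and 227 CPM in KO (log2 fold change 0.78 ± 0.18, adjusted p = 0.158, and 0.91 ± 0.16, adjusted p = 0.114, without KO replicate 1). Col3a1, of type III collagen, was 218 and 166 CPM in WT and 306, 399 and 419 CPM in KO (log2 fold change 0.97 ± 0.23, adjusted p = 0.16, and 1.09 ± 0.22, adjusted p = 0.12, without KO replicate 1). In both genes KO replicate 1 was the lowest KO library. It was the lowest in 13 of the 15 collagens, against 40.3% of all genes. The median transcript length of these collagens was 5930 bases, against 3461 for all protein-coding genes tested. With the sign of the length slope as a term in the fit, the list median was 0.57. The type VI collagens Col6a1, Col6a2 and Col6a3 had log2 fold changes of 0.13, 0.16 and 0.07, and their groups overlapped.

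Genes that process and cross-link collagen included 1 that passed, Lox. Of 31 tested, 11 were higher at an unadjusted p under 0.05, 0 were lower, and the median was 0.29 (0.33 without KO replicate 1). Loxl1, a second cross-linking oxidase that acts on elastin, was 38.8 and 42.7 CPM in WT and 70.9, 72.2 and 72.6 CPM in KO, with the KO libraries nearly equal (log2 fold change 0.82 ± 0.13, adjusted p = 0.0787, and 0.83 ± 0.13, adjusted p = 0.0905, without KO replicate 1). P4ha3, a subunit of prolyl 4-hydroxylase, was 0.0404 and 0 CPM in WT and 0.468, 0.636 and 0.605 CPM in KO, too low in WT for a fold. Among 42 matricellular, proteoglycan and elastic fibre genes, 17 were higher at an unadjusted p under 0.05 (21 without KO replicate 1) and 0 lower, with a median of 0.56 (0.63). Tnc, tenascin C, which marks injured tissue, was 2.91 and 0.958 CPM in WT and 41.7, 48.4 and 16.5 CPM in KO (log2 fold change 4.19 ± 0.64, adjusted p = 0.0787, and 4.07 ± 0.72, adjusted p = 0.119, without KO replicate 1). Thbs1, a thrombospondin that activates latent TGF-beta, was 8.96 and 8.62 CPM in WT and 52.7, 48.6 and 29.7 CPM in KO (log2 fold change 2.31 ± 0.40, adjusted p = 0.0892, and 2.16 ± 0.43, adjusted p = 0.141, without KO replicate 1), and Thbs4, made by stressed myocytes, was 6.46 and 6.54 CPM in WT and 16.6, 13.98 and 12.8 CPM in KO (log2 fold change 1.15 ± 0.18, adjusted p = 0.0787, and 1.04 ± 0.18, adjusted p = 0.107, without KO replicate 1). All 3 had every KO library above both WT libraries. The 21 tested basement membrane genes did not share this: 0 had an unadjusted p under 0.05, and their median of -0.20 was -0.02 without KO replicate 1 and just above 0 with positive-slope libraries only.

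Matrix proteases and their inhibitors leaned higher, and none passed the adjusted threshold. Of 41 tested, 31 had a positive log2 fold change, 13 were higher at an unadjusted p under 0.05 and 0 lower, with a median of 0.19 (0.27). Timp1, the inducible inhibitor of metalloproteinases, was 2.705 and 0.749 CPM in WT and 78.4, 26.1 and 17.2 CPM in KO. KO replicate 1 stood above the other KO libraries, and the WT libraries differed as well (log2 fold change 4.54 ± 0.98, adjusted p = 0.137, and 3.64 ± 0.88, adjusted p = 0.296, without KO replicate 1). Mmp3, stromelysin 1, was 3.07 and 2.83 CPM in WT and 9.59, 9.73 and 10.3 CPM in KO (log2 fold change 1.74 ± 0.31, adjusted p = 0.0892, and 1.76 ± 0.34, adjusted p = 0.118, without KO replicate 1). Mmp8, the collagenase of neutrophils, was 0.0404 and 0.0416 CPM in WT and 0.889, 0.604 and 0.484 CPM in KO, with 1 count in each WT library. Of 35 TGF-beta and activin genes, 7 were higher and 0 lower at an unadjusted p under 0.05 (median 0.11, 0.12 without KO replicate 1). In that list Gdf15, a stress-induced member of the family, was 1.09 and 1.17 CPM in WT and 4.17, 5.403 and 2.22 CPM in KO (log2 fold change 1.8 ± 0.37, adjusted p = 0.11, and 1.77 ± 0.40, adjusted p = 0.168, without KO replicate 1). Of 24 Wnt genes and secreted antagonists, 3 were higher and 1 lower (median 0.23, 0.32). Sfrp2, a secreted Wnt antagonist of fibroblasts, was 2.58 and 3.46 CPM in WT and 4.59, 6.77 and 16.5 CPM in KO, and its highest value was KO replicate 3 alone (log2 fold change 1.62 ± 0.51, adjusted p = 0.313, and 1.94 ± 0.43, adjusted p = 0.17, without KO replicate 1).

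Macrophage and myeloid genes were the list with the highest share of members higher in KO among those with 10 or more genes tested. Of 52 tested, 37 had an unadjusted p under 0.05 and were higher, with and without KO replicate 1, and 0 were lower. The groups did not overlap, with KO higher, in 41 of 52, against 14% of all genes. The median log2 fold change was 0.98 (0.92 without KO replicate 1). No member passed the adjusted threshold in either fit. Spi1, which encodes PU.1, the master factor of myeloid cells, was 3.59 and 3.25 CPM in WT and 13.6, 9.88 and 7.75 CPM in KO (log2 fold change 1.60 ± 0.25, adjusted p = 0.0787, and 1.37 ± 0.21, adjusted p = 0.0812, without KO replicate 1). Lyz2, lysozyme of myeloid cells, was 130.4 and 93.4 CPM in WT and 296, 243 and 222 CPM in KO (log2 fold change 1.18 ± 0.19, adjusted p = 0.0821, and 1.06 ± 0.18, adjusted p = 0.0982, without KO replicate 1). Fcgr2b, the inhibitory Fc receptor, was 8.28 and 6.58 CPM in WT and 18.3, 16.9 and 16.2 CPM in KO (log2 fold change 1.20 ± 0.19, adjusted p = 0.0787, and 1.16 ± 0.20, adjusted p = 0.107, without KO replicate 1). In all 3 genes KO replicate 1 was highest, as in 31 of the 52, against 39.3% of all genes.

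Among 24 genes of lipid-associated macrophages, 12 were higher and 0 lower at an unadjusted p under 0.05, with a median of 0.49 (0.38). Lgals3, galectin 3, was 4.52 and 2.12 CPM in WT and 23.96, 14.8 and 13.2 CPM in KO (log2 fold change 2.38 ± 0.37, adjusted p = 0.0787, and 2.07 ± 0.32, adjusted p = 0.0905, without KO replicate 1), and Trem2, a lipid-sensing receptor, was 1.66 and 1.17 CPM in WT and 4.59, 3.401 and 5.25 CPM in KO (log2 fold change 1.64 ± 0.27, adjusted p = 0.0878, and 1.61 ± 0.30, adjusted p = 0.117, without KO replicate 1). Spp1, osteopontin, was 0.767 and 0.458 CPM in WT and 58.04, 21.1 and 6.38 CPM in KO, so the KO libraries themselves differed several-fold (log2 fold change 5.52 ± 1.04, adjusted p = 0.103, and 4.48 ± 0.72, adjusted p = 0.107, without KO replicate 1). Arg1, arginase 1, was at 0 counts in both WT libraries and at 9.22, 1.18 and 0.888 CPM in KO. Of 33 cathepsin and lysosome genes 7 were higher and 1 lower at an unadjusted p under 0.05 (median 0.23, 0.22), Ctss being the member that passed. The groups did not overlap in 19 of these with KO higher, against 14% of all genes. Of 29 antigen presentation genes 9 were higher and 0 lower (median 0.38, 0.37). H2-DMa, which helps to load class II molecules, was 2.14 and 1.67 CPM in WT and 5.62, 3.85 and 4.76 CPM in KO (log2 fold change 1.31 ± 0.29, adjusted p = 0.141, and 1.17 ± 0.31, adjusted p = 0.257, without KO replicate 1).

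Complement genes leaned higher in KO, and none passed the adjusted threshold. Of 24 tested, 13 were higher at an unadjusted p under 0.05 and 0 lower (median 0.76). Without that library 16 were higher, 0 lower, and all 24 had a positive log2 fold change (median 0.86). KO replicate 1 was the lowest KO library in 17 of 24, against 40.3% of all genes. C5ar1 and C3ar1, the receptors of the anaphylatoxins, were 6.34 and 3.71 CPM in WT and 16.4, 13.3 and 11.6 CPM in KO, and 8.11 and 5.16 CPM in WT and 13.6, 15.96 and 15.5 CPM in KO, respectively. The log2 fold changes were 1.45 ± 0.25 (SE), adjusted p = 0.0892, and 1.18 ± 0.21 (SE), adjusted p = 0.0892. Without KO replicate 1 they were 1.31 ± 0.24, adjusted p = 0.116, and 1.25 ± 0.22, adjusted p = 0.114. C1qc, a chain of the recognition molecule C1q, was 31.2 and 24.9 CPM in WT and 48.9, 44.5 and 55.2 CPM in KO (log2 fold change 0.82 ± 0.19, adjusted p = 0.162, and 0.83 ± 0.21, adjusted p = 0.235, without KO replicate 1).

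Of 51 chemokine, cytokine and receptor genes, 23 were higher and 1 lower at an unadjusted p under 0.05 (median 0.79, 0.63 over 47 genes without KO replicate 1). Tnfrsf12a, the receptor of TWEAK, was 28.1 and 38.5 CPM in WT and 104, 76.1 and 57.99 CPM in KO (log2 fold change 1.25 ± 0.25, adjusted p = 0.105, and 1.01 ± 0.20, adjusted p = 0.12, without KO replicate 1). Il1b, interleukin 1 beta, was 0.0807 and 0.208 CPM in WT and 6.97, 2.002 and 1.25 CPM in KO, with 2 and 5 counts in WT and KO replicate 1 far above the other KO libraries. The list of gp130, STAT3 and acute-phase genes had a median of 1.06, which was 0.75 without KO replicate 1 (31 genes tested). Of 34 tested, 19 were higher and 0 lower at an unadjusted p under 0.05, and Serpina3n passed the threshold. Hp, haptoglobin, was 0.606 and 0.375 CPM in WT and 5.94, 3.05 and 3.43 CPM in KO (log2 fold change 3.05 ± 0.43, adjusted p = 0.0787, and 2.71 ± 0.37, adjusted p = 0.0537, without KO replicate 1). Fgl2, fibrinogen-like protein 2, was 45.1 and 29.6 CPM in WT and 109, 125 and 90.2 CPM in KO (log2 fold change 1.53 ± 0.26, adjusted p = 0.0892, and 1.52 ± 0.28, adjusted p = 0.116, without KO replicate 1), with the KO libraries well apart from WT. The interferon response list lay closer to 0: of 53 tested, 9 were higher and 0 lower, with a median of 0.18 (0.19).

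**Figure D3:**
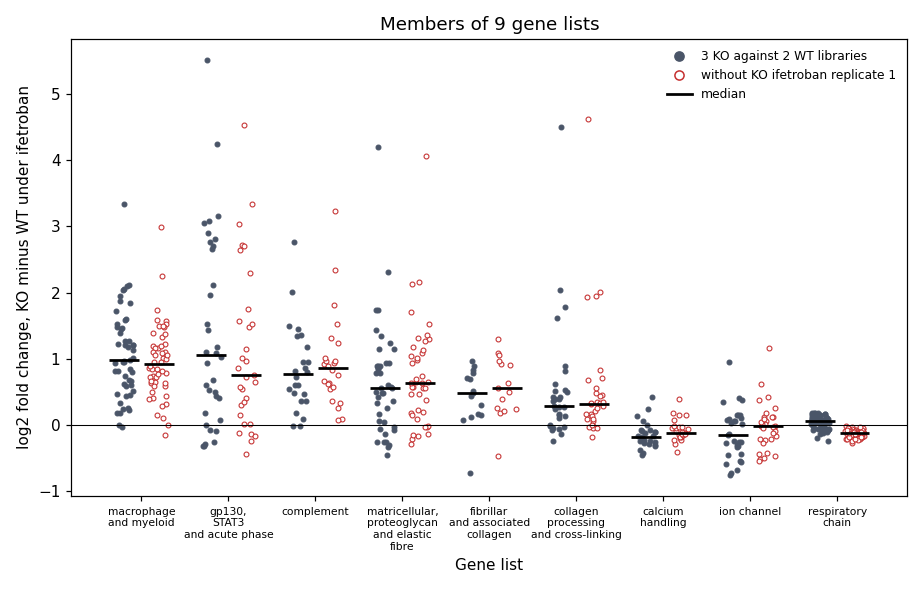
Log2 fold change (KO minus WT under ifetroban) of each tested member of 9 gene lists, with all 5 libraries (filled) and without KO replicate 1 (open); horizontal bars are medians. The macrophage and myeloid members centre on 0.98 and 0.92, while the respiratory chain members centre on 0.06 with KO replicate 1 and on -0.12 without it.

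Markers of other cells were measured beside these lists, as sums of CPM over fixed markers. The 6 macrophage markers summed to 106 and 135 CPM in WT and to 174, 191 and 205 CPM in KO. The 4 neutrophil markers summed to 1.58 and 2.46 CPM in WT and to 21.7, 11.1 and 7.26 CPM in KO, all 4 being higher in every KO library. For instance Csf3r, the receptor of the granulocyte growth factor, was 1.17 and 0.708 CPM in WT and 6.27, 3.75 and 3.31 CPM in KO (log2 fold change 2.23 ± 0.38, adjusted p = 0.0892, and 1.90 ± 0.34, adjusted p = 0.113, without KO replicate 1). The 6 cardiomyocyte markers summed to 46822 and 47958 CPM in WT and to 38922, 39511 and 42746 CPM in KO, with Myh6 the largest term. Taken singly, 2 of the 6 were lower in every KO library, against 15.1% of all genes, and KO replicate 1 was the highest KO library in 5. Without KO replicate 1 all 6 had a negative log2 fold change (median -0.21). In 5 of them both remaining KO libraries lay below both WT libraries, against 23% of all genes. The median over the 6 of log2 CPM relative to the 5 libraries overlapped between the groups. It was 0.05 and 0.07 in WT and 0.19, -0.07 and -0.09 in KO. Sums of fibroblast (1462 to 1728 CPM in WT, 1474 to 2090 in KO), endothelial (1077 to 1182, 1047 to 1158) and smooth muscle and pericyte markers (968 to 1009.5, 934 to 1055) overlapped. So did erythroid, skeletal muscle, mesothelial and Schwann cell markers. Taken singly, all 6 fibroblast markers had a positive log2 fold change in both fits (median 0.14, and 0.20 without KO replicate 1). In 3 of them KO was higher without overlap, against 14% of all genes, and in 0 lower. Without KO replicate 1 these were 4 and 0, against 19.2% of all genes for the higher ones. Low sums of lymphocyte (2.12 to 2.30 CPM in WT, 2.39 to 3.18 in KO), adipocyte (0.20 to 0.29, 0.66 to 1.62) and atrial markers (1.09 to 1.42, 1.46 to 1.68) were higher in every KO library. Of the 6 lymphocyte markers 3 had counts enough to be tested, and 2 of these were higher and 1 lower in every KO library. Only 1 adipocyte and 1 atrial marker were tested, and the groups overlapped for the atrial one. All markers found had a count in at least 1 of the 5 libraries. The part of these cell types in the gene lists above was not tested. In bulk tissue a larger number of cells of a type and more RNA per cell cannot be told apart, and the same holds for a fall.

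**Figure D4:**
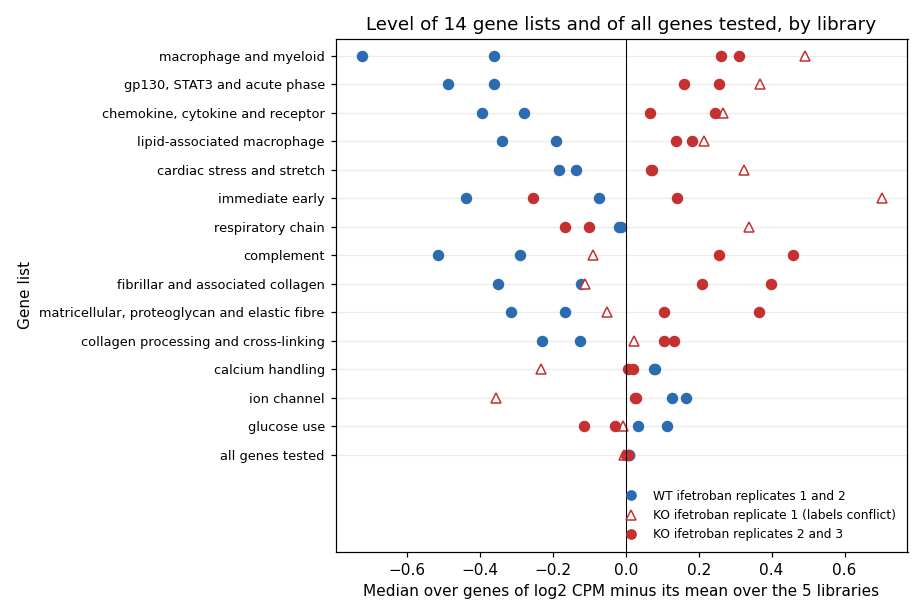
Level of 14 gene lists and of all genes tested in each of the 5 libraries. It is the median over genes of log2 CPM, with a small constant added to CPM, minus the gene's mean over the 5 libraries. In the macrophage and myeloid list the WT libraries are at -0.36 and -0.73 and the KO libraries at 0.26 to 0.49, while in the respiratory chain list KO replicate 1 is at 0.34 and the other KO libraries are at -0.10 and -0.17.

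The pathway that ifetroban targets was read in 32 prostanoid genes. Of these, 8 were higher and 2 lower in KO at an unadjusted p under 0.05, and none passed the adjusted threshold (median 0.17, 0.13). Tbxa2r, the receptor itself, was 3.43 and 1.87 CPM in WT and 3.23, 1.81 and 3.79 CPM in KO, with overlap and a log2 fold change of 0.14 ± 0.35 (SE), adjusted p = 0.925 (0.06 ± 0.39, adjusted p = 0.995, without KO replicate 1). Its sign changed without WT replicate 2, to -0.23, and without KO replicate 3, to -0.08. Tbxas1, thromboxane synthase, was 1.66 and 1.58 CPM in WT and 4.21, 3.18 and 3.79 CPM in KO, higher in each KO library (log2 fold change 1.20 ± 0.26, adjusted p = 0.137, and 1.10 ± 0.29, adjusted p = 0.25, without KO replicate 1). Among the enzymes before it, Ptgs2, the inducible cyclooxygenase, was 0.767 and 0.541 CPM in WT and 4.59, 1.97 and 1.53 CPM in KO, and Ptgs1, the constitutive one, was 5.85 and 4.33 CPM in WT and 5.195, 6.32 and 7.02 CPM in KO. The groups overlapped for Ptgs1 and did not for Ptgs2, whose KO replicate 1 was highest. Ptgis, prostacyclin synthase, overlapped at 15.7 and 9.24 CPM in WT and 22.9, 15.5 and 23.6 CPM in KO. Pla2g7, which hydrolyses platelet-activating factor, was 4.401 and 4.41 CPM in WT and 6.599, 8.42 and 10.3 CPM in KO (log2 fold change 0.94 ± 0.22, adjusted p = 0.163, and 1.08 ± 0.21, adjusted p = 0.118, without KO replicate 1). Slco2a1, the prostaglandin transporter, was 2.66 and 2.87 CPM in WT and 4.3996, 4.39 and 5.49 CPM in KO (log2 fold change 0.78 ± 0.24, adjusted p = 0.306, and 0.83 ± 0.27, adjusted p = 0.42, without KO replicate 1).

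Of 25 tested genes that couple the TP receptor to its G proteins and their effectors, 4 were higher and 1 lower at an unadjusted p under 0.05. The median was -0.03 and changed sign to 0.04 without KO replicate 1. The 4 included the protein kinase C genes Prkcd (11.02 and 13.8 CPM in WT and 17.1, 17.1 and 19.5 CPM in KO) and Prkcb (2.26 and 1.83 CPM in WT and 3.32, 3.401 and 3.59 CPM in KO), both also expressed in leukocytes. The G protein genes Gnaq, Gna12 and Gna13 had log2 fold changes of 0.06, -0.12 and 0.04. Of 13 leukotriene and lipoxygenase genes, 6 were higher and 0 lower (median 0.24, 0.40 over 12 genes). Alox5ap, which presents arachidonic acid to its lipoxygenase, was 4.97 and 5.58 CPM in WT and 14.3, 10.3 and 11.8 CPM in KO (log2 fold change 1.20 ± 0.21, adjusted p = 0.0892, and 1.07 ± 0.21, adjusted p = 0.119, without KO replicate 1). Cysltr1, a receptor of cysteinyl leukotrienes, was 1.57 and 1.67 CPM in WT and 3.42, 2.96 and 3.63 CPM in KO (log2 fold change 1.04 ± 0.27, adjusted p = 0.195, and 1.02 ± 0.30, adjusted p = 0.337, without KO replicate 1).

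Partners of delta-sarcoglycan were measured next. Of the chains reported here, alpha and beta, which sit with delta in the complex of striated muscle, differed slightly. Sgca was 88.01 and 88.9 CPM in WT and 80.3, 74.8 and 66.2 CPM in KO (log2 fold change -0.26 ± 0.13, adjusted p = 0.589, and -0.33 ± 0.13, adjusted p = 0.598, without KO replicate 1). Sgcb was 152 and 148 CPM in WT and 129, 139 and 129 CPM in KO (log2 fold change -0.18 ± 0.11, adjusted p = 0.69, and -0.17 ± 0.12, adjusted p = 0.92, without KO replicate 1). Both lay below WT in all 3 KO libraries. Sgce, the epsilon form of other tissues, overlapped between the groups at 10.8 and 10.03 CPM in WT and 12.03, 10.1 and 12.5 CPM in KO. Sspn, sarcospan, was 264 and 264 CPM in WT and 210.4, 242 and 232 CPM in KO (log2 fold change -0.21 ± 0.11, adjusted p = 0.648, and -0.15 ± 0.11, adjusted p = 0.931, without KO replicate 1). Of 16 tested genes of dystrophin, utrophin and their partners, 1 was higher and 1 lower at an unadjusted p under 0.05, with a median of -0.20 that was -0.05 without KO replicate 1. Dmd, dystrophin, was 192 and 175 CPM in WT and 87.4, 159 and 159 CPM in KO: KO replicate 1 was far below the other KO libraries, and the log2 fold change went from -0.44 ± 0.26 to -0.21 without it. Cav3, muscle caveolin, was 37.7 and 37.1 CPM in WT and 68.8, 55.5 and 49.3 CPM in KO, higher in each KO library (log2 fold change 0.63 ± 0.20, adjusted p = 0.321, and 0.49 ± 0.19, adjusted p = 0.58, without KO replicate 1). Among 21 membrane repair genes 5 were higher and 0 lower at an unadjusted p under 0.05 (2 and 0 when KO replicate 1 was left out). Anxa2, an annexin that patches torn membranes, was 45.98 and 37.9 CPM in WT and 109, 75.4 and 60.01 CPM in KO (log2 fold change 0.96 ± 0.24, adjusted p = 0.186, and 0.69 ± 0.18, adjusted p = 0.242, without KO replicate 1).

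Genes of calcium handling and of ion channels leaned lower. Of 26 calcium handling genes, 0 were higher and 2 lower at an unadjusted p under 0.05, and the groups did not overlap, with KO lower, in 12, against 15.1% of all genes. The median was -0.18 (-0.11 without KO replicate 1, with 13 of 26 lower without overlap against 23%). Hrc, a calcium-binding protein of the sarcoplasmic reticulum, was 951 and 999.8 CPM in WT and 674, 712 and 761 CPM in KO (log2 fold change -0.45 ± 0.12, adjusted p = 0.216, and -0.40 ± 0.12, adjusted p = 0.366, without KO replicate 1). Of 31 ion channel genes, 0 were higher and 5 lower at an unadjusted p under 0.05 (1 and 3 when KO replicate 1 was left out). Their median of -0.15 was -0.01 without KO replicate 1 and just above 0 with positive-slope libraries only. Kcnip2 and Kcnd2, subunits of the channel of the transient outward current, were 183 and 183 CPM in WT and 113, 129 and 130.2 CPM in KO, and 39.6 and 31.8 CPM in WT and 14.2, 27.1 and 21.95 CPM in KO, respectively. In both, each KO library lay below both WT libraries (log2 fold change -0.56 ± 0.19, adjusted p = 0.361, and -0.76 ± 0.26, adjusted p = 0.368). Without KO replicate 1 they were -0.50 ± 0.20, adjusted p = 0.609, and -0.54 ± 0.21, adjusted p = 0.549. Of 24 sarcomere genes 2 were higher and 0 lower (median -0.11, -0.11). Synpo2l, an actin-binding protein of the Z disc, was 153 and 136 CPM in WT and 286, 276 and 187 CPM in KO (log2 fold change 0.79 ± 0.19, adjusted p = 0.162, and 0.68 ± 0.18, adjusted p = 0.268, without KO replicate 1), and Des, desmin, was 1715 and 1729.8 CPM in WT and 2367, 2096 and 2181 CPM in KO (log2 fold change 0.36 ± 0.15, adjusted p = 0.487, and 0.31 ± 0.16, adjusted p = 0.759, without KO replicate 1).

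The direction of the respiratory chain list rested on 1 library. With all 5 libraries, 46 of 66 genes had a positive log2 fold change and the median was 0.06. Without KO replicate 1, all 66 were negative, the median was -0.12, and in 45 both KO libraries lay below both WT libraries, against 23% of all genes. None had an unadjusted p under 0.05 in either fit. KO replicate 1 was the highest KO library in 64 of the 66, against 39.3% of all genes, and the median transcript length of the list was 1186 bases. With the sign of the length slope as a term in the fit, the median was -0.13. Sdha, a subunit of complex II, was 1415 and 1473 CPM in WT and 1172, 1315 and 1169 CPM in KO, and Atp5a1, of the ATP synthase, was 3844 and 4124 CPM in WT and 3817, 3569 and 3447 CPM in KO. The log2 fold changes were -0.24 ± 0.12 and -0.14 ± 0.12, and -0.22 and -0.18 without KO replicate 1. Of 45 genes of fatty acid uptake and oxidation, 4 were higher and 2 lower at an unadjusted p under 0.05, against 6.25% and 3.12% of all genes. Their median was -0.05 (-0.11 without KO replicate 1), and 28 had a negative log2 fold change (33 without that library). The groups did not overlap, with KO lower, in 13 and, with KO higher, in 5, against 15.1% and 14% of all genes. Without KO replicate 1 these were 20 and 5, against 23% and 19.2%.

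Genes of glucose use leaned lower. Of 36 genes, 27 had a negative log2 fold change (28 without KO replicate 1), and 3 were higher and 7 lower at an unadjusted p under 0.05. The groups did not overlap, with KO lower, in 15 and, with KO higher, in 4, against 15.1% and 14% of all genes. Without KO replicate 1 these were 24 and 4, against 23% and 19.2%. The median was -0.15 (-0.20). Pfkm, the muscle phosphofructokinase, was 862 and 953 CPM in WT and 661, 665 and 731 CPM in KO (log2 fold change -0.40 ± 0.12, adjusted p = 0.296, and -0.38 ± 0.13, adjusted p = 0.488, without KO replicate 1), whereas Pfkp, the platelet form, was 48.004 and 47.7 CPM in WT and 74.04, 76.2 and 60.2 CPM in KO (log2 fold change 0.55 ± 0.14, adjusted p = 0.204, and 0.51 ± 0.15, adjusted p = 0.339, without KO replicate 1). Slc2a4, the insulin-responsive glucose transporter, was 442 and 419.7 CPM in WT and 326, 294 and 376 CPM in KO (log2 fold change -0.38 ± 0.13, adjusted p = 0.363, and -0.36 ± 0.14, adjusted p = 0.544, without KO replicate 1). Among 44 cell cycle genes 1 was higher and 2 lower at an unadjusted p under 0.05, with a median of -0.27 that became 0.14 without WT replicate 1. Top2a, a topoisomerase of dividing cells, was 7.19 and 2.04 CPM in WT and 1.97, 1.53 and 1.74 CPM in KO, and the WT libraries differed more from each other than the second did from KO. The unfolded protein and ATF4 list had 11 of 38 higher and 0 lower at an unadjusted p under 0.05, and 3 and 0 without KO replicate 1 (medians 0.28 and 0.32). Manf, a secreted chaperone-like factor of the endoplasmic reticulum, was 24.3 and 21.1 CPM in WT and 67.4, 75.6 and 25.6 CPM in KO, with KO replicate 3 near WT. Of 28 immediate early genes 4 were higher and 1 lower, and the median of 0.67 was 0.21 without KO replicate 1, the highest KO library in 23 of the 28.

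**Figure D5:**
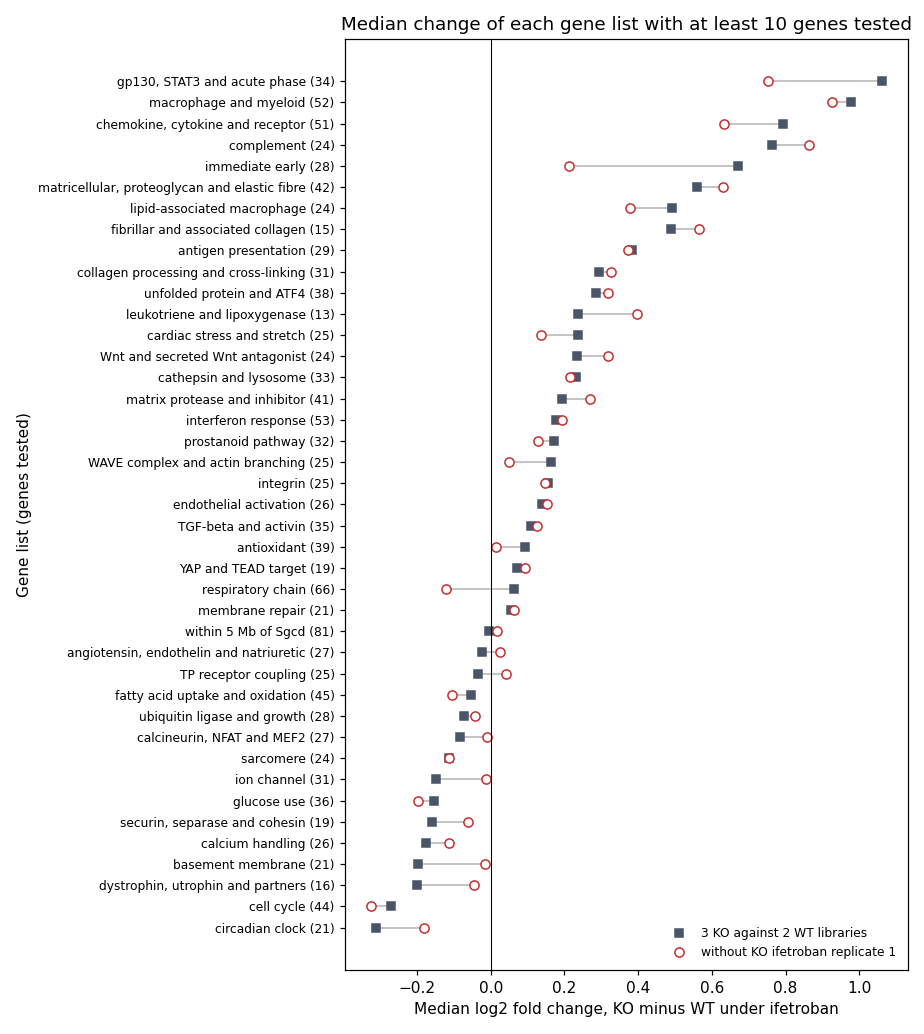
Median log2 fold change of each gene list with at least 10 genes tested, with all 5 libraries (squares) and without KO replicate 1 (circles). The immune and acute-phase lists and the collagen and matricellular lists lie above 0 in both, and the respiratory chain list moves from 0.06 to -0.12.

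With only WT and KO replicates 2 and 3 in the model (2 against 2, residual degrees of freedom 2), more genes passed. At an adjusted p under 0.05, 54 rose and 9 fell (63 of 14984, 0.42%), the 9 genes of the fit on 8 libraries among them. KO replicate 1, which this model did not use, lay on the KO side of both WT libraries in 53 of the 54 and in all 9. Over all genes in which KO replicates 2 and 3 separated from WT, it did so in 2090 of 2875 higher (72.7%) and in 2293 of 3473 lower (66.0%). These shares reuse the same WT libraries. They are also not like for like. The genes past the threshold were selected for a difference from WT that was large for their spread, whereas the others only had to separate. The exception was Vwf, von Willebrand factor of endothelium, at 43.9 and 45.8 CPM in WT and 31.1, 66.7 and 71.5 CPM in KO. The genes named next were chosen after their values were seen.

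Several of the 54 encode matrix proteins. Fn1, fibronectin, was 57.3 and 49.1 CPM in WT and 149, 127 and 129 CPM in KO, and rose by 1.28 ± 0.10 (SE) on the log2 scale. Fbn1, fibrillin 1 of microfibrils, was 78.4 and 85.8 CPM in WT and 108, 162 and 153 CPM in KO, and Vcan, the proteoglycan versican, was 23.1 and 17.2 CPM in WT and 31.8, 40.97 and 38.5 CPM in KO. Prg4, the lubricant proteoglycan, was 14.8 and 12.7 CPM in WT and 81.2, 41.4 and 57.8 CPM in KO. Col1a1, Col3a1, Col5a2, Loxl1, Mmp3, Thbs1 and Thbs4 also passed in this model. Lipid and macrophage genes passed too. Apoe, the apolipoprotein of macrophages and other cells, was 188 and 213 CPM in WT and 299, 355 and 421 CPM in KO, Gpnmb was 1.94 and 2.58 CPM in WT and 3.698, 8.45 and 6.62 CPM in KO, and Mpeg1, perforin 2 of phagocytes, was 15.8 and 10.4 CPM in WT and 27.5, 38.2 and 37.5 CPM in KO. Scd4, a desaturase with its main site in the heart, was 5.05 and 4.996 CPM in WT and 17.2, 25.1 and 17.2 CPM in KO. Clu, clusterin, a secreted chaperone, was 478 and 456 CPM in WT and 877, 899 and 746 CPM in KO. Among the falls, Lrtm1 was 573 and 659 CPM in WT and 264, 317 and 328 CPM in KO, and Ky, a muscle protein whose loss causes kyphoscoliosis in mice, was 30.6 and 27.2 CPM in WT and 13.9, 14.9 and 16.5 CPM in KO. P2ry1, a receptor of ADP, was 47.1 and 52.9 CPM in WT and 22.6, 29.1 and 31.2 CPM in KO, and Apln, the peptide apelin, was 19.3 and 19.8 CPM in WT and 16.1, 10.5 and 9.24 CPM in KO. In each of these genes all KO libraries, replicate 1 included, lay on 1 side of both WT libraries.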

How the data were processed

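The deposited values were expected counts per gene for each library, estimated by the authors, with 28.2% of values not whole and 81.2% within 0.01 of a whole number. The submitters' processing notes name bcl2fastq, STAR, Partek and build mm10. No source used here gives their versions or roles, or the counting rule. The files hold 20634 genes, 0 of them mitochondrial-chromosome genes, and 123 at 0 in every library. A set of 8 pseudogenes held 19.8% to 28.6% of a library and was kept. Coordinates are the deposited ones with 1 subtracted from the end, which gave GENCODE M21 ends for 15571 of 19704 shared symbols (70 before).

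Counts were rounded and kept by filterByExpr (minimum count 10), scaled by TMM, and tested with edgeR 4.0.16 (R 4.3.3, robust quasi-likelihood, 4 group means, 9 libraries, residual degrees of freedom 5, common biological coefficient of variation 0.176). A second fit left out KO ifetroban replicate 1 (15472 genes, residual degrees of freedom 4). P-values were adjusted by Benjamini-Hochberg over all genes tested, threshold 0.05. SE is the log2 fold change over the square root of F. In simulated counts with 200 changed genes among 15310, 61.6% of log2 changes of 1 and 89.9% of log2 changes of 2 were recovered, with 6 false calls. Without KO replicate 1 these were 51.5% and 88.9% among 15281 genes, with 10 false calls. Apart from the set changes, the simulation gave each gene the same mean in all groups and a spread that depended only on its level. It held no length slope and no library that stood apart, so these rates do not give the recovery in the real libraries.

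The members, the 55 gene lists (1382 entries, 1293 tested, 1226 distinct genes tested) and the tests were chosen with earlier results of these data known. Named genes are Sgcd, every gene past the threshold in either fit with a mean of at least 1 CPM (no predicted-gene symbols, up to 15 rises and 15 falls), the 3 members of each list with the smallest unadjusted p, Tbxa2r, Nppa, Nppb, Myh6, Myh7 and the sarcoglycans. A few genes under this rule are not reported here. Gm12167, Arg1, Ptgs1, Ptgs2, Ptgis, Gnaq, Gna12, Gna13, Col6a1, Col6a2, Col6a3 and the genes of the 2-against-2 model were named outside this rule, after their values were seen. Transcript length is that of the longest GENCODE M21 transcript. Log2 CPM for length slopes had a prior count of 2, and for levels of lists a small constant was added to CPM before the log. The settings tried are listed under the dependence on processing, with DESeq2 1.42.0 and limma 3.58.1.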

Additional observations from a re-analysis of the deposited data

How the results depend on the processing

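The 6 genes past the threshold became 7 with DESeq2 size factors, 7 with limma-voom, 7 with a stricter filter that asked for 1 CPM in all libraries of a group, 7 with KO ifetroban replicate 1 counted as vehicle, and 6 with the pseudogenes left out. They became 290 with the DESeq2 Wald test, 18 with no filter on low counts, 10 with only the groups compared, 172 with the replicate block, 143 with the sign of the length slope as a term and 61 with positive-slope libraries only. Leaving out 1 library gave 2 to 15 genes. The count was 2 (Pttg1 and Cyfip2) without WT ifetroban replicate 1, WT ifetroban replicate 2 or KO ifetroban replicate 2. It was 15 without KO ifetroban replicate 3, 4 when KO vehicle replicate 1 was left out, and 11 and 10 without WT vehicle replicates 1 and 2. The adjusted p of Serpina3n was 0.0505 without KO vehicle replicate 1, and 0.0508 when KO ifetroban replicate 3 was left out. The values of Ankrd1 and Ctss were 0.0725 and 0.0764 without KO vehicle replicate 1, and 0.0640 and 0.0778 without KO vehicle replicate 2.

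In the fit that leaves out KO ifetroban replicate 1, the 9 genes became 165 with the DESeq2 Wald test, 22 with no filter and 63 with only the groups compared, and 7 to 13 with limma-voom, DESeq2 size factors, the stricter filter, the pseudogenes left out or the replicate block. Leaving out 1 more library of the groups compared gave 1 to 4 genes. The cause of these differences was not tested. Replicate numbers are not stated to pair the samples. Deviations from the group means of same-numbered KO and WT libraries correlated at 0.040 and 0.043. The deviations of the WT libraries mirror each other by construction, and KO ifetroban replicate 1 stood apart, so these values cannot decide whether samples were paired. The 172 and 13 genes of the replicate block are given for completeness.

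Among the named genes reported here, signs changed for 7, all of which passed the threshold in neither fit. With the length slope as a term these were Cdh5 (0.0029), Kdr (0.015) and Sox10 (0.072). With the replicate block they were Sox10 (0.011) and Tbxa2r (-0.088). Myh7 was 0.097 with KO ifetroban replicate 1 counted as vehicle and 0.12 with positive-slope libraries only. Over the fits that each left out 1 library, the log2 fold change ranged from -0.23 to 0.64 for Tbxa2r, -0.16 to 0.42 for Wt1, -0.25 to 0.063 for Sox10, -0.26 to 0.015 for Actc1, -0.43 to 0.058 for Kdr and -0.35 to 0.17 for Myh7.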

Other observations

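The remaining gene lists are given by their counts. Of 25 integrins, 8 were higher and 1 lower in KO at an unadjusted p under 0.05, against 6.25% and 3.12% of all genes, with a median of 0.16 that became -0.03 without WT ifetroban replicate 1. Itgam and Itgb2, the chains of the main leukocyte integrin, were 9.37 and 5.87 CPM in WT and 25.1, 15.2 and 15.1 CPM in KO, and 6.86 and 5.62 CPM in WT and 23.6, 12.4 and 12.1 CPM in KO, respectively. Of 26 endothelial activation genes, 5 were higher and 1 lower (median 0.14), and Plvap, a protein of endothelial diaphragms, was 6.702 and 4.704 CPM in WT and 10.95, 13.03 and 10.5 CPM in KO. Of 39 antioxidant genes, 6 were higher and 1 lower (median 0.09, 0.01 without KO ifetroban replicate 1), and Gpx3, the secreted glutathione peroxidase, was 153 and 131 CPM in WT and 206, 221 and 194 CPM in KO. Of 27 angiotensin, endothelin and natriuretic genes, 2 were higher and 1 lower. In that list Mme, the protease that degrades natriuretic peptides, was 13.4 and 10.1 CPM in WT and 5.102, 7.25 and 5.25 CPM in KO, lower in each KO library (log2 fold change -0.99 ± 0.26, adjusted p = 0.216, and -0.90 ± 0.29, adjusted p = 0.401, without KO replicate 1). Of 27 calcineurin, NFAT and MEF2 genes, 1 was higher and 1 lower, and of 28 ubiquitin ligase and growth genes, 0 were higher and 2 lower. Of 21 circadian clock genes 0 had an unadjusted p under 0.05, with a median of -0.31. Hlf, a clock output factor, was 54.2 and 24.98 CPM in WT and 14.2, 13.5 and 34.99 CPM in KO, so libraries of 1 group differed as much as the groups. Haemoglobin genes also varied within groups: Hbb-bs was 63.4 and 164 CPM in WT and 278, 101 and 281 CPM in KO. The male-specific gene Ddx3y was present in all 5 libraries, at 79.5 and 78.9 CPM in WT and 64.2, 73.01 and 69.7 CPM in KO.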
